A study of Mus musculus with 12 samples.

Results

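The comparison described here set neurons from a scrambled-control line of mouse D3 embryonic stem cells, siSCR, against neurons from the unmodified D3 cells. It used 6 of the 12 arrays of the study, the 3 entitled siSCR neuron and the 3 entitled D3 neuron, selected by their titles. All cells of the study derive from the D3 line and were collected at day 16 of neuronal differentiation, and each array read total RNA of a whole culture on a 1-colour whole-transcript array. D3 cells had no treatment, and siSCR cells carried a scrambled sequence with no intended target. The siPRMT1 and siPRMT8 cells carried knockdowns of the arginine methyltransferases PRMT1 and PRMT8. Their arrays enter the choice of genes and probe sets by mean value, the estimate of the spread, the principal components and a side-by-side description. Each group is 1 line with 3 biological replicates. Whether the replicates were differentiated separately is not stated in the labels, and p-values therefore cover only the spread between these samples. They also do not say how the scrambled sequence was introduced, so the sequence, its delivery and the history of the line cannot be told apart.

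A non-targeting control line passes through the same delivery, selection and expansion as a knockdown line, and it is made so that effects of those steps can be seen apart from loss of the target. Embryonic stem cells turn into neurons through embryoid bodies, aggregates that form without the self-renewal factor LIF, and the cited protocol is known for leading through Pax6-positive progenitors to glutamatergic neurons with the help of retinoic acid. Such cultures can also hold progenitors, astrocytes and non-neural cells. Gfap is the intermediate filament of astrocytes, Calb1 is the calcium-binding protein calbindin of many interneurons and sensory neurons, and Tfap2a is a transcription factor of neural crest, early ectoderm and some spinal interneurons.

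Values are log2 values per probe set, and a difference is siSCR minus D3, so that 1 is a 2-fold difference. Levels of different genes cannot be compared on this scale, and no background level or detection call was used. The test covered 14953 genes, those above a filter on the lowest mean values. Above that filter, which kept 14953 of 19938 genes, lay 28 of 28 pan-neuronal genes and 27 of 27 measured synaptic genes. So did 23 of 25 astrocyte genes, 21 of 21 epithelial genes and 7 of 15 myeloid genes. Genes of several cell types lay above it, so these counts are no check of the neuronal label.

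The array of siSCR replicate 1 stood apart from the other 5. Its Pearson correlation with the D3 arrays was 0.9751 to 0.9792 across genes, against 0.992 to 0.994 for siSCR replicates 2 and 3. With siSCR replicates 2 and 3 it correlated at 0.9801 and 0.9823. With the knockdown arrays it correlated at 0.966 (siPRMT1 replicate 2) to 0.987 (siPRMT1 replicate 1), so some knockdown arrays were nearer to it than its own group. On the first principal component of all 12 arrays, which held 61.4% of the variance, it lay at 0.105, while the D3 arrays lay at -22.7 to -21.6, siSCR replicates 2 and 3 at -26.2 and -22.2, and the knockdown arrays at 13.6 to 25.7. In siSCR replicate 1, 10 genes lay at least 1 log2 unit above all other 5 arrays and 81 lay as far below them. The corresponding counts were 2 and 0 in D3 replicate 2 and 0 and 0 in the other 4 arrays. Differences are therefore given with this array and without it, and a pair of values in parentheses after a gene, as in (0.61, 0.42), is the difference with all arrays and then without siSCR replicate 1.

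In all, 23 of the 14953 genes changed between siSCR and D3 (0.154%, limma, adjusted p under 0.05), 9 higher (0.0602%) and 14 lower (0.0936%). An unadjusted p under 0.05 was reached by 1430 genes (9.56%), and an adjusted p under 0.1 by 48 (0.321%). Those that rose included Gfap, the glucagon precursor gene Gcg, the retinol carrier gene Rbp4 and the retinoic acid receptor gene Rarg. Those that fell included both calbindin family genes Calb1 and Calb2 and the transcription factor genes Tfap2a and Pou4f1. Differences among the 23 ran from 0.38 to 1.45 log2 units in size, and 4 higher and 3 lower genes reached 2-fold. In 17 of the 23 genes siSCR replicate 1 lay farthest from the D3 mean. Without siSCR replicate 1, 21 genes passed (0.14%), 12 higher (0.0803%) and 9 lower (0.0602%). Of these, 13 were among the 23, and all 23 kept their direction.

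The count of 23 changed with the number of arrays and with the model. Leaving out D3 replicate 1, D3 replicate 2 or D3 replicate 3 left 2, 2 and 3 genes, and leaving out siSCR replicate 2 or siSCR replicate 3 left 11 and 6. Gcg and Tfap2a passed in all 6 of these reduced fits, including the fit without siSCR replicate 1. With the replicate number as a block, 15 genes passed (5 higher, 10 lower), 12 of them among the 23. In a fit to the 6 arrays alone with that block, limma called 0 genes, the smallest adjusted p was 0.0558 and 1983 genes had an unadjusted p under 0.05. Fitted to the 6 arrays without a block, 9 genes passed, 5 of them among the 23 (Gcg, Gfap, Hoxaas2, Lmo1 and Tfap2a). Other settings gave far more genes. With array weights, which gave siSCR replicate 1 a weight of 0.271, 279 genes passed (140 higher, 139 lower), and in the 2-group fit without siSCR replicate 1 it was 326 (203 higher, 123 lower). Both of these sets held all 23 genes.

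The block acted on the fit without siSCR replicate 1 as well, in an alternative chosen after seeing the data. Of its 21 genes 10 passed with the block, which were Gcg, Gfap, Tfap2a, Cntn3, Moxd1, Olig1, Hoxb9, Hoxc5, Lbp and Syndig1. The other 11, Actn3, Adam28, B4galnt2, Calb1, Camk2n1, Cnmd, Crym, Dpf3, Hoxc8, Pid1 and Rbp4, then had an adjusted p of 0.0514 to 0.165. The block also added Cdh8, Nyap2 and Shisa6 there, and with all arrays it added Nhlh1, Dbx1 and Steap3 (0.38, adjusted p = 0.0475 with the block and 0.158 without it).

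**Figure D1:**
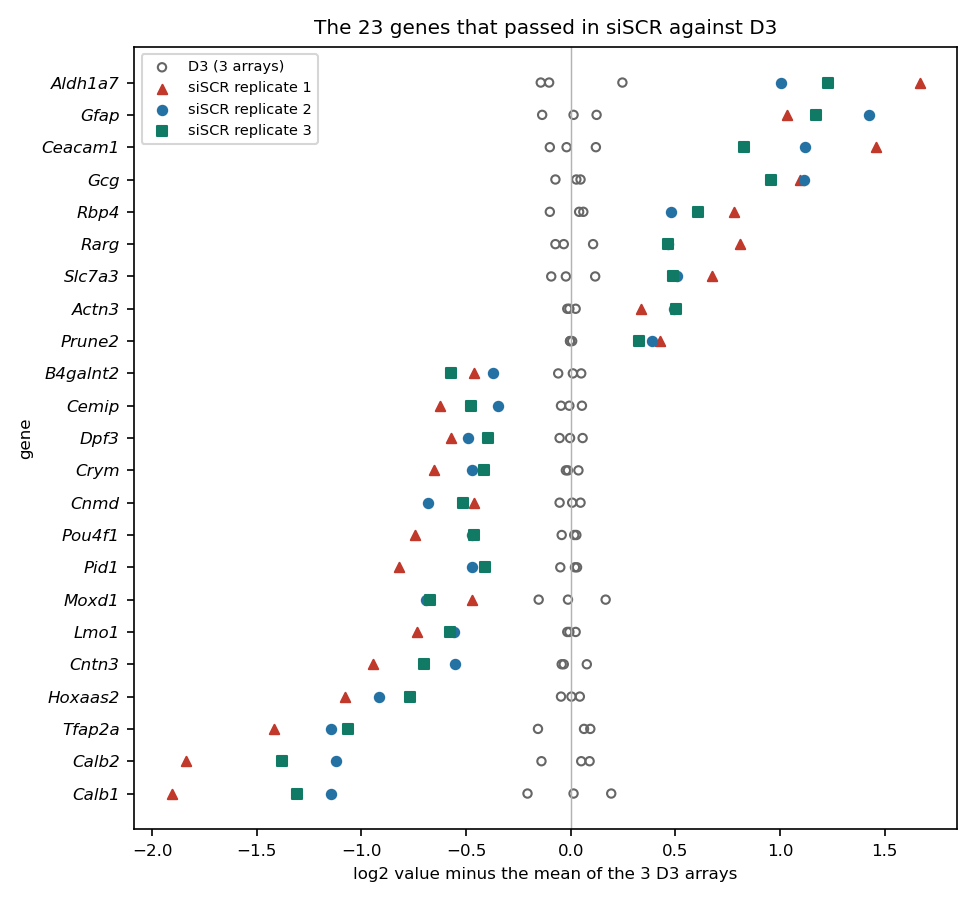
Each row is a gene that passed in siSCR against D3, and the horizontal axis gives the log2 value of each of the 6 arrays minus the mean of the 3 D3 arrays, with open circles for D3 and filled symbols for the 3 siSCR replicates. All 9 higher and 14 lower genes have groups that do not overlap, and siSCR replicate 1 (triangles) is the farthest from D3 in 17 of them.

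Promoter windows of Gfap, Gcg and Rarg are shown as examples of genes that rose and hold a motif that was searched for. Windows of Rbp4 and Aldh1a7, which also rose and hold such motifs, are not shown, and Rarg has another RefSeq start whose window holds none of the motifs. The windows shown are the 250 bases before the RefSeq start, build GRCm38.p6, minus strand, read from 5′ to 3′ along the gene. The Gfap window lies at chr11:102897201-102897450, the Gcg window at chr2:62483654-62483903 and the Rarg window shown at chr15:102257523-102257772. Capitals mark matches, on either strand, to AGGTCA, the core motif of retinoid receptors, in Gfap and Rarg (read as TGACCT on the strand printed) and to TATAAA, the TATA box, in Gcg, which has 2 matches.
Gfap: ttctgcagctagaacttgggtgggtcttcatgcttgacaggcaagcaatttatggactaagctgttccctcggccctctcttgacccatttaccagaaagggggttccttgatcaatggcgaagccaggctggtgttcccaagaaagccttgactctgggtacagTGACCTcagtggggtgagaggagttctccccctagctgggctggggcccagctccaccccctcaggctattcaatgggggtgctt
Gcg: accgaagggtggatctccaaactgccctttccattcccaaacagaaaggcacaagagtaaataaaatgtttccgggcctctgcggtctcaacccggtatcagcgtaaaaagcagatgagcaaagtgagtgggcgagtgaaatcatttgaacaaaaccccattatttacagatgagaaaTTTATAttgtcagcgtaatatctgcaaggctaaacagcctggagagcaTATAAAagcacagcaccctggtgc
Rarg: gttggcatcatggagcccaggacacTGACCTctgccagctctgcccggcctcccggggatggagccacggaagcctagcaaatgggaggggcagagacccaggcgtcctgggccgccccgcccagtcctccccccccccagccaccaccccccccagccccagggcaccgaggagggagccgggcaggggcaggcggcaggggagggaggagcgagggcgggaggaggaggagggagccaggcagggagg

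Of the 23 genes that passed, 17 had windows in the RefSeq promoter table, 21 windows in all. The motif AGGTCA was found in 3 of the 21 (14.29%), those of Gfap, Rarg and Dpf3, and in 14.02% of all 32851 windows. TATAAA was found in 4 of the 21 (19.05%) and in 12.37% of all windows. The AP-2 motif GCCNNNGGC, named for the factor family to which the Tfap2a protein belongs, was found in 4 of the 21 (19.05%) and in 13.73% of all windows. The STAT motif TTCNNNGAA was found in 2 of the 21 (9.524%), those of Cntn3 and Moxd1, and in 7.02% of all windows. Each motif was searched on both strands, no matches overlapped in the 3 windows shown, and a match is a description of the sequence only.

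Gfap was higher in the scrambled line. It read 6.66, 6.81 and 6.92 in D3 replicates 1 to 3 and 7.83, 8.22 and 7.97 in siSCR replicates 1 to 3. Every siSCR array lay above every D3 array, and siSCR replicate 1 was the lowest of the siSCR arrays. The rise was 1.21 (2.31-fold, SE 0.139, adjusted p = 0.0102), and 1.30 without siSCR replicate 1 (adjusted p = 0.00776). It did not pass without D3 replicate 1 or D3 replicate 2, where the largest adjusted p was 0.0924. In bulk RNA, more cells of a type and more RNA per cell cannot be told apart, here and in all results that follow.

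Other astrocyte genes did not pass. Of the 23 astrocyte genes tested 1, Gfap, rose and 0 fell, 3 had siSCR values all above and 3 all below the D3 values (20.3% of all genes tested had groups that did not overlap, 10.7% higher and 9.56% lower), and the median difference was 0.04, or 0.10 without siSCR replicate 1, beside 0.01 and 0.00 over all genes tested. In all, 15 of the 23 differences were positive. Above D3 lay the clusterin gene Clu (0.61, 0.42), the matrix protein gene Sparcl1 (0.33, 0.51) and Ndrg2 (0.20, 0.36). Below it lay the glutamate transporter gene Slc1a2 (-0.30, 0.00), the gap junction gene Gja1 (-0.28, -0.31), the water channel gene Aqp4 (-0.21, -0.10) and the folate enzyme gene Aldh1l1 (-0.19, -0.02). Of 17 reactive glia genes, which injured or inflamed astrocytes express, 0 passed in limma. An unadjusted p under 0.05 was reached by 3 of them, beside 9.56% of all genes tested. In all siSCR arrays 5 lay above and 2 below D3, and the median was 0.07. The 5 were led by Tm4sf1 (0.74, 0.67), Lcn2 (0.40, 0.53), Emp1 (0.35, 0.30) and the hyaluronan receptor gene Cd44 (0.34, 0.28). The 2 below were Serping1 (-0.235, -0.11) and Vim (-0.085, -0.067), and the values of Serpina3n (-0.14, 0.23) overlapped. Of 25 genes of the JAK-STAT and BMP pathways, which are known to drive astrocyte formation, 0 passed, with a median of -0.05. Here 4 had an unadjusted p under 0.05, again beside 9.56%. In all siSCR arrays 2 lay above and 5 below D3. The lowest was the BMP target gene Id4 (-0.58, -0.32). Its relatives Id1 (-0.03, 0.00), Id2 (-0.21, -0.21) and Id3 (-0.08, -0.03) had smaller differences, and Bmp7 (0.30, 0.24) lay above D3.

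In the oligodendrocyte lineage the call of Olig1 depended on siSCR replicate 1. Olig1, a transcription factor of oligodendrocyte precursors, read 6.45, 6.55 and 6.38 in D3 against 6.58, 7.38 and 7.41 in siSCR. The groups did not overlap, but siSCR replicate 1 lay just above D3. The difference was 0.67 with all arrays (SE 0.178, adjusted p = 0.221), and without siSCR replicate 1 Olig1 rose by 0.94 (adjusted p = 0.0032). Its neighbour and partner Olig2 lay at 0.41 and 0.59, and the precursor receptor gene Pdgfra at -0.41 and -0.34, with neither passing. Of the 13 lineage genes tested, 0 passed with all arrays and 5 had an unadjusted p under 0.05 (9.56% of all genes). In all siSCR arrays 5 lay above and 1 below D3 (10.7% and 9.56% of all genes). The list median was 0.13, or 0.12 without siSCR replicate 1.

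Gcg was the higher gene that passed whichever array was left out. This gene, which encodes the precursor of glucagon and of glucagon-like peptides and is active in pancreatic alpha cells, gut endocrine cells and some hindbrain neurons, read 5.90, 5.88 and 5.78 in D3 against 6.95, 6.97 and 6.81 in siSCR. The 3 siSCR arrays lay close together and well above D3, with siSCR replicate 1 among them. Gcg rose by 1.06 (2.08-fold, SE 0.0908, adjusted p = 0.000693) and by 1.04 without siSCR replicate 1 (adjusted p = 0.00384), with an adjusted p of at most 0.00945 whichever array was left out. The endoderm list held 1 gene that rose among 13 tested, Rbp4, and 0 that fell, with a median of 0.09, or 0.10 without siSCR replicate 1. Counting Rbp4, 5 of the 13 lay above and 3 below D3 in all siSCR arrays (10.7% and 9.56% of all genes). The endoderm factor genes Foxa1 (0.44, 0.31), Hnf4a (0.27, 0.14), Foxa2 (0.07, 0.13) and Sox17 (-0.33, -0.34) did not pass, nor did the transthyretin gene Ttr (0.08, 0.07).

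Among genes of retinoid transport and signalling, Rbp4 and Rarg passed as higher and none of those tested passed as lower. Rbp4, the retinol carrier of plasma, read 6.37, 6.21 and 6.35 in D3 against 7.09, 6.79 and 6.92 in siSCR. Rarg, the retinoic acid receptor gamma, read 6.93, 6.75 and 6.79 in D3 against 7.63, 7.29 and 7.29 in siSCR. For both genes the groups did not overlap and siSCR replicate 1 was the highest array. Rbp4 rose by 0.62 (SE 0.0865, adjusted p = 0.0261) and by 0.55 without siSCR replicate 1 (adjusted p = 0.0388). Rarg rose by 0.58 (SE 0.0939, adjusted p = 0.043), and without siSCR replicate 1 the difference of 0.47 did not pass (adjusted p = 0.0544).

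Of 19 retinoic acid response genes, 2 rose and 0 fell, and the median was 0.06, or 0.08 without siSCR replicate 1. In all siSCR arrays 5 of the 19 lay above and 6 below D3 (10.7% and 9.56% of all genes). Besides Rbp4 and Rarg, those above were Aldh1a1 (0.49, 0.36), the retinal reductase gene Dhrs3 (0.38, 0.26) and the receptor gene Rarb (0.26, 0.25). Those below were the retinoic acid-binding protein genes Crabp2 (-0.90, -1.11) and Crabp1 (-0.48, -0.35), the homeobox genes Meis2 (-0.62, -0.44) and Meis1 (-0.41, -0.29), the degrading enzyme gene Cyp26b1 (-0.51, -0.57) and the synthesis enzyme gene Aldh1a2 (-0.38, -0.29). None of these 9 genes passed. Aldh1a7, an aldehyde dehydrogenase gene close in sequence to the retinal dehydrogenase gene Aldh1a1, read 5.58, 5.93 and 5.54 in D3 against 7.35, 6.69 and 6.91 in siSCR. It rose by 1.30 (2.46-fold, adjusted p = 0.0395), but the difference of 1.11 without siSCR replicate 1 (adjusted p = 0.0726) and the blocked value (adjusted p = 0.0749) did not pass. Aldh1a1 did not pass, and the signal of such near copies may be shared on the array, so the source gene of the Aldh1a7 rise is uncertain.

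The remaining higher genes were of mixed kinds. Ceacam1, an adhesion molecule of epithelial and immune cells with the near copy Ceacam2, read 6.54, 6.68 and 6.46 in D3 against 8.02, 7.68 and 7.39 in siSCR, a rise of 1.14 (adjusted p = 0.0395) with siSCR replicate 1 highest. It did not pass without that array (0.98, adjusted p = 0.0726) or with the block (adjusted p = 0.0614). Slc7a3, a transporter of cationic amino acids, rose by 0.56, Actn3, an alpha-actinin of fast muscle fibres, by 0.44, and Prune2 by 0.38. With the block the adjusted p of these 3 genes was 0.0749, 0.0749 and 0.0772. Without siSCR replicate 1 Actn3 passed (0.49, adjusted p = 0.0228), and Slc7a3 (0.50, adjusted p = 0.111) and Prune2 (0.36, adjusted p = 0.0774) did not. A second probe set of Prune2 lay at 0.02.

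Calb1 and Calb2 were the lower genes with the greatest differences among those that passed. Calb1 read 7.04, 7.44 and 7.26 in D3 against 5.34, 6.10 and 5.94 in siSCR. Calb2, which encodes the related calcium-binding protein calretinin, read 7.83, 8.06 and 8.02 in D3 against 6.13, 6.85 and 6.59 in siSCR. For both genes siSCR replicate 1 was the lowest array, but siSCR replicates 2 and 3 also lay below every D3 array. Calb1 fell by 1.45 (2.74-fold, SE 0.203, adjusted p = 0.0261) and by 1.23 without siSCR replicate 1 (adjusted p = 0.032). Calb2 fell by 1.44 (2.72-fold, SE 0.217, adjusted p = 0.037), and its difference without siSCR replicate 1 was -1.25 (adjusted p = 0.0569).

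Of the 20 genes for calcium-binding proteins and neuropeptides tested, these 2 fell and 0 rose, with a median of -0.21, and of 0.04 without siSCR replicate 1. Over all genes tested 0.0936% fell and 0.0602% rose. In all siSCR arrays 2 of the 20 lay above and 6 below D3 (10.7% and 9.56% of all genes). An unadjusted limma p under 0.05 was reached by 8 (9.56% of all genes). The neuropeptide Y gene Npy read 10.88, 10.82 and 10.99 in D3 against 8.93, 10.04 and 10.14 in siSCR. Its groups did not overlap, but the difference of -1.20 did not pass (SE 0.388, adjusted p = 0.321), and it was -0.81 without siSCR replicate 1. Adcyap1, the gene of the neuropeptide PACAP, lay at -0.98 and -0.72, and Reln, the reelin gene, at -0.63 and -0.19.

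Tfap2a was the lower gene with the smallest adjusted p. It read 8.82, 8.60 and 8.85 in D3 against 7.34, 7.61 and 7.69 in siSCR. All siSCR arrays lay below all D3 arrays, and siSCR replicate 1 was the lowest. Tfap2a fell by 1.21 (2.32-fold, SE 0.0965, adjusted p = 0.000607) and by 1.11 without siSCR replicate 1 (adjusted p = 0.00104), and its adjusted p was at most 0.00833 whichever array was left out. Its family members Tfap2b (-0.52, -0.24) and Tfap2c (0.09, -0.12) did not pass.

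Pou4f1, the sensory neuron transcription factor Brn3a, read 7.19, 7.18 and 7.12 in D3 against 6.42, 6.69 and 6.70 in siSCR. It fell by 0.56 (SE 0.0932, adjusted p = 0.046), and at -0.47 did not pass without siSCR replicate 1 (adjusted p = 0.0726). Of 19 neural crest and sensory genes, Tfap2a and Pou4f1 fell and 0 rose (0.0936% and 0.0602% of all genes), with a median of -0.03 with and without siSCR replicate 1. In all siSCR arrays 3 of the 19 lay above and 6 below D3 (10.7% and 9.56% of all genes). An unadjusted limma p under 0.05 was reached by 5 (9.56% of all genes). Pax3 (-0.92, -0.89), a dorsal neural tube and neural crest factor, had groups that did not overlap and did not pass. Neither did the defining neural crest factors Sox10 (0.00, 0.09) and Foxd3 (0.32, 0.18).

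**Figure D2:**
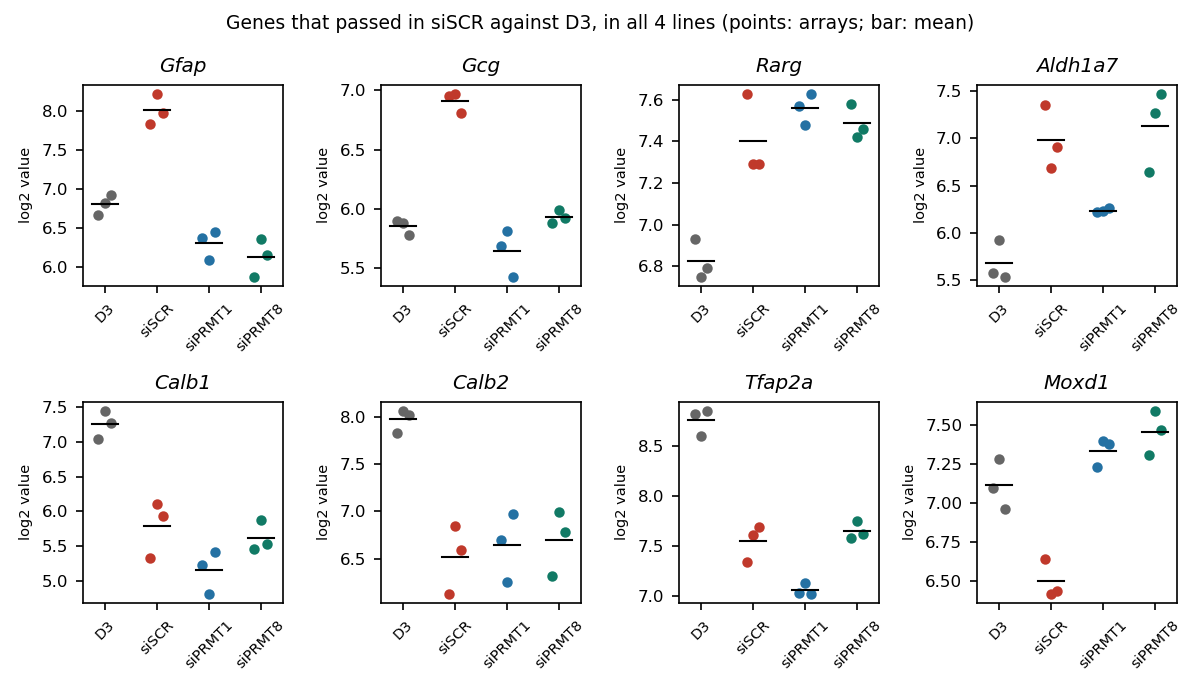
Each panel shows the log2 value (vertical axis, scaled per gene) of a gene in the 12 arrays by line, with points for arrays and a bar for the mean of 3. The highest Gfap and Gcg values and the lowest Moxd1 values are those of the siSCR arrays, and Calb1, Calb2 and Tfap2a are highest in the D3 arrays.

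The remaining lower genes included regulators of neuronal identity and cell surface proteins. Hoxaas2, a transcript antisense to genes of the Hoxa cluster, read 8.31, 8.26 and 8.35 in D3 against 7.23, 7.39 and 7.54 in siSCR and fell by 0.92 (adjusted p = 0.0395). The nearby Hoxa2 (-0.79, -0.67) and Hoxa3 (-0.07, 0.07) did not pass. Hoxaas2 did not pass without siSCR replicate 1 (-0.84, adjusted p = 0.0788) or with the block (adjusted p = 0.0614). Lmo1, a LIM-domain cofactor of neural transcription factors, fell by 0.62 (adjusted p = 0.037), with a value of -0.57 without siSCR replicate 1 (adjusted p = 0.0645). Dpf3, a subunit of chromatin remodelling complexes, fell by 0.49, and by 0.44 without siSCR replicate 1 (adjusted p = 0.0473).

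Cntn3, a contactin adhesion molecule of neurons, read 6.73, 6.85 and 6.74 in D3 against 5.83, 6.22 and 6.07 in siSCR. It fell by 0.73 (SE 0.0952, adjusted p = 0.0195), and by 0.63 without siSCR replicate 1 (adjusted p = 0.0145). Crym, which encodes a thyroid hormone-binding protein, fell by 0.51 (adjusted p = 0.0192) and by 0.44 without that array (adjusted p = 0.0122). Moxd1, a relative of dopamine beta-hydroxylase, read 7.10, 7.28 and 6.96 in D3 against 6.64, 6.42 and 6.44 in siSCR, so that here siSCR replicate 1 was the siSCR array nearest to D3. It fell by 0.62 (adjusted p = 0.0431) and by 0.68 without that array (adjusted p = 0.0388), and did not pass with the block (adjusted p = 0.067).

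Pid1, an adaptor protein gene, fell by 0.57, Cnmd, the chondromodulin gene, by 0.55, and B4galnt2, a glycosyltransferase gene, by 0.47. These 3 also fell without siSCR replicate 1 (adjusted p = 0.0388, 0.0388 and 0.0473), and did not pass with the block (adjusted p = 0.0798, 0.0614 and 0.0614). Cemip, a gene of hyaluronan breakdown named here because it completes the 14, fell by 0.48, and did not pass without siSCR replicate 1 (-0.40, adjusted p = 0.0639) or with the block (adjusted p = 0.067).

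Leaving out siSCR replicate 1 added 8 genes, all higher in siSCR. Among them were 3 Hox genes, which mark position along the body axis. Hoxc8 read 7.32, 7.20 and 7.28 in D3 against 7.38, 8.30 and 7.90 in siSCR, Hoxc5 6.23, 6.09 and 6.12 against 6.34, 7.14 and 7.01, and Hoxb9 8.10, 7.94 and 8.08 against 8.29, 8.69 and 8.64. In each, siSCR replicate 1 lay between D3 and the other siSCR arrays. Without it Hoxc5 rose by 0.93 (adjusted p = 0.0142), Hoxc8 by 0.84 (adjusted p = 0.0122) and Hoxb9 by 0.63 (adjusted p = 0.00776). With all arrays the differences were 0.69, 0.59 and 0.50, and their adjusted p was 0.213, 0.241 and 0.0958.

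Of the 25 Hox genes tested, 0 passed with all arrays, and 10 had an unadjusted p under 0.05 (9.56% of all genes). The median was 0.15, or 0.27 without siSCR replicate 1, when 3 rose. The median of the list relative to D3 was -0.02 in siSCR replicate 1, 0.29 in siSCR replicate 2 and 0.26 in siSCR replicate 3. Of the Hox genes with separated groups, 6 were higher, Hoxa7, Hoxa10, Hoxb9, Hoxc5, Hoxc6 and Hoxc8, and 3 were lower, Hoxa2, Hoxb2 and Hoxb4 (10.7% and 9.56% of all genes).

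The other 5 genes added without siSCR replicate 1 were Syndig1, Lbp, Adam28, Camk2n1 and Olig1. Syndig1, a synapse differentiation factor gene, rose by 0.82 (adjusted p = 0.0102), against 0.65 (adjusted p = 0.101) with all arrays. Lbp, which encodes a binding protein of bacterial lipopolysaccharide, rose by 0.74 (adjusted p = 0.00776), against 0.58 (adjusted p = 0.106). Adam28, a membrane protease gene, rose by 0.65 (adjusted p = 0.0473), with a greater difference of 0.84 that did not pass (adjusted p = 0.0549) with all arrays. Camk2n1, an inhibitor of the kinase CaMKII, read 7.95, 7.90 and 8.04 in D3 against 7.63, 8.36 and 8.37 in siSCR, so siSCR replicate 1 lay on the other side of D3 from its 2 fellows.

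**Figure D3:**
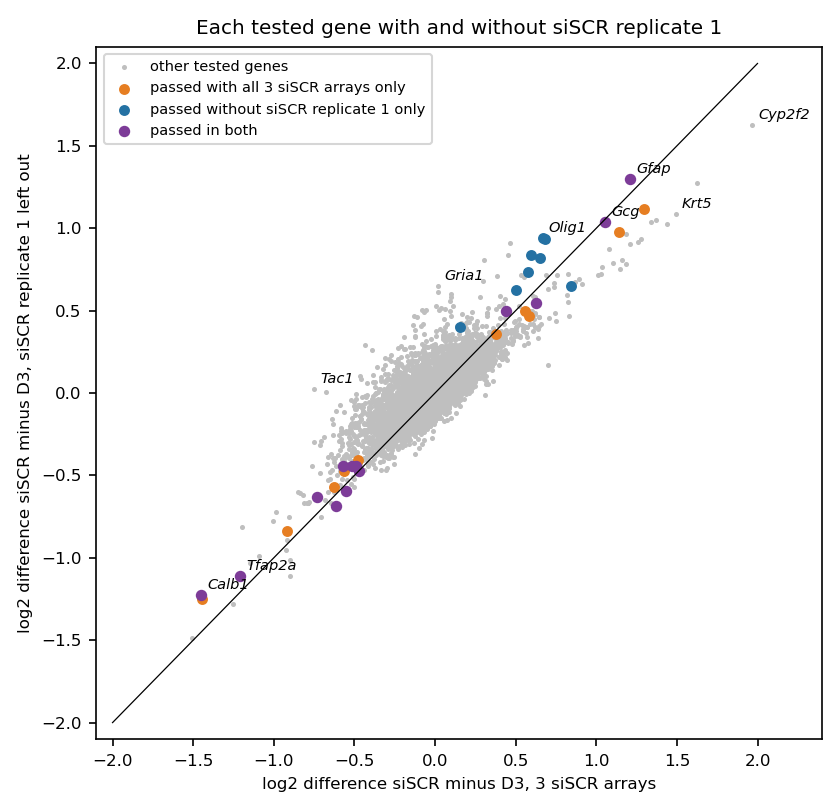
Each point is 1 of the 14953 tested genes, with the siSCR minus D3 difference in log2 units from all 3 siSCR arrays on the horizontal axis and from replicates 2 and 3 on the vertical axis. Genes that passed in both fits (13), only with all arrays (10) or only without siSCR replicate 1 (8) are coloured, and the line marks equal values.

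Neuronal genes were low in siSCR replicate 1 and near the D3 level in its fellows. Relative to the D3 mean, the median of 28 pan-neuronal genes was -0.98 in siSCR replicate 1, 0.07 in siSCR replicate 2 and -0.01 in siSCR replicate 3. The 27 synapse genes had medians of -0.54, 0.18 and 0.00, the 14 glutamatergic genes -0.74, 0.16 and 0.08, and the 16 GABAergic and glycinergic genes -0.76, -0.04 and 0.00. In these lists limma called 0 genes with all arrays and 0 without siSCR replicate 1. With all arrays 9 pan-neuronal, 1 synapse, 3 glutamatergic and 5 GABAergic and glycinergic genes had an unadjusted p under 0.05. Over all genes tested that share was 9.56%.

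Single genes showed the same split. Tac1, the substance P precursor gene, read 9.09, 9.19 and 9.16 in D3 against 6.85, 9.28 and 9.05 in siSCR. Gria1, an AMPA receptor subunit gene, read 7.28, 7.26 and 7.31 in D3 against 6.03, 8.09 and 7.77 in siSCR. For both genes siSCR replicate 1 alone lay far below D3, and for Gria1 the other siSCR arrays lay above it. The difference was -0.75 for Tac1 (adjusted p = 0.747) and 0.02 for Gria1 (adjusted p = 0.996). Without siSCR replicate 1 it was 0.02 and 0.65, and neither passed.

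Of the 6 genes lowest in siSCR replicate 1 against its 2 fellows, the others were the calcium sensor gene Vsnl1, the potassium channel gene Kcnk9, the GABA receptor gene Gabra3 and the kainate receptor auxiliary gene Neto1, and 0 of the 6 passed. The 6 highest there were Actg2, Krt15, Krt5, Psca, Krt4 and Gsdmc2, and 0 of them passed either, with all arrays or without siSCR replicate 1. Among the 17 or 18 alternative settings run per gene, Krt5, Krt15, Krt4 and Psca each passed in 2. Gsdmc2, Gria1, Neto1 and Vsnl1 each passed in 1, and Actg2, Tac1, Kcnk9 and Gabra3 in 0. Both sets were chosen for a wide gap within siSCR, which adds to their spread. Whether they passed is therefore no result about these genes.

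Most genes of neuronal commitment lay below D3 in all siSCR arrays, without passing. Of 17 proneural genes 0 passed in limma, and 12 had an unadjusted p under 0.05 (9.56% of all genes). In 12 the siSCR values lay all below D3 and in 0 all above (9.56% and 10.7% of all genes). Their median was -0.34, or -0.27 without siSCR replicate 1, and relative to D3 it was -0.56, -0.29 and -0.25 in siSCR replicates 1 to 3. Nhlh1, a basic helix-loop-helix factor of newborn neurons, read 7.73, 8.09 and 7.65 in D3 against 6.45, 6.84 and 6.74 in siSCR. Its difference was -1.15 (SE 0.214, adjusted p = 0.0832), -1.03 without siSCR replicate 1 (adjusted p = 0.17), and with the block it passed (adjusted p = 0.0265). The same side held Neurod4 (-1.09, -0.99), Ebf2 (-0.81, -0.67), Nhlh2 (-0.58, -0.52) and Sox11 (-0.55, -0.37).

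Of 18 neural progenitor genes 0 passed, and 9 had an unadjusted p under 0.05 (9.56% of all genes). In all siSCR arrays 10 lay below and 1 above D3 (9.56% and 10.7% of all genes). The median was -0.24, or -0.15 without siSCR replicate 1. Pax6, the progenitor factor of the protocol, read 8.12, 8.22 and 8.08 in D3 against 7.76, 7.77 and 7.78 in siSCR. All siSCR arrays were lower and nearly equal, and the difference of -0.37 did not pass (SE 0.0654, adjusted p = 0.0639, and 0.114 without siSCR replicate 1). The Notch ligand gene Dll1 (-0.57, -0.41), the Notch target Hes5 (-0.52, -0.42), the RNA-binding protein gene Msi1 (-0.46, -0.43) and the filament gene Nes (-0.37, -0.38) were also below D3, whereas Sox1 (-0.03, 0.00) and Sox2 (0.06, -0.02) lay near it. The brain matrix proteoglycan gene Bcan (0.44, 0.50) lay above. Dbx1, a factor of ventral spinal progenitors, lay at -0.79 (adjusted p = 0.0639, and 0.122 without siSCR replicate 1) and passed with the block (adjusted p = 0.0265).

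**Figure D4:**
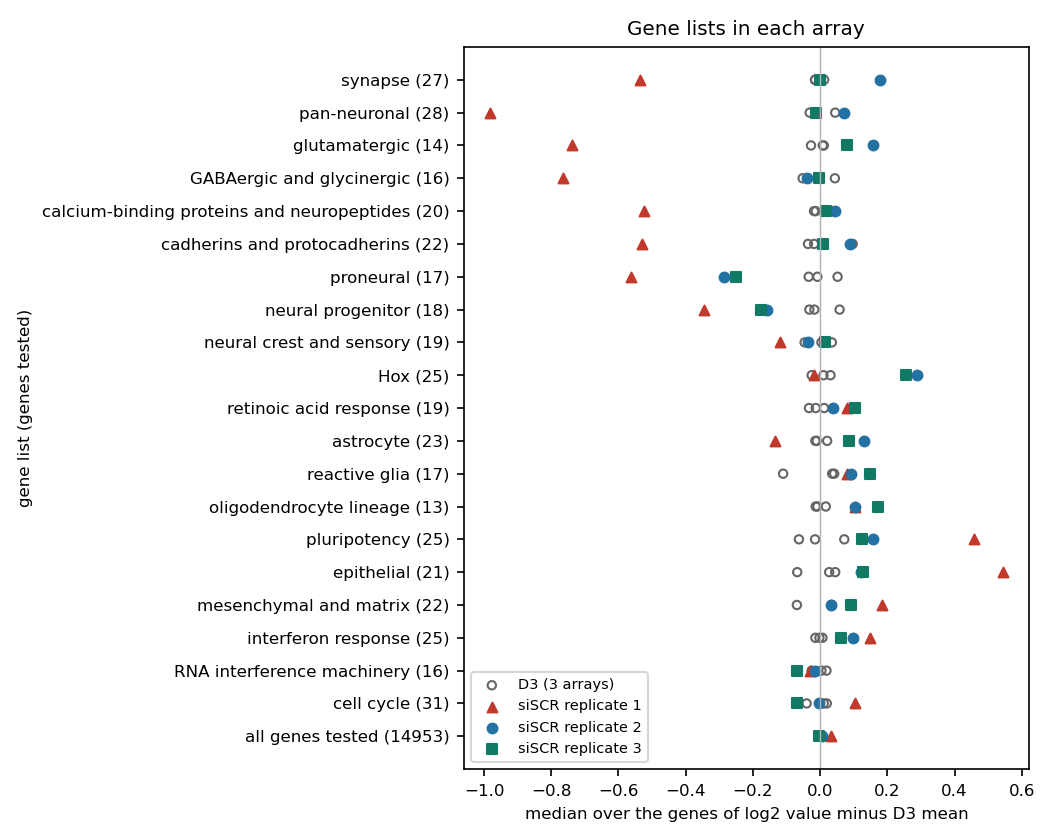
For 20 gene lists and for all genes tested, the horizontal axis gives the median over the genes of the log2 value minus the mean of the 3 D3 arrays, for each of the 6 arrays. Pan-neuronal genes lie at -0.98 in siSCR replicate 1 and near 0 in the other arrays, while proneural genes lie below D3 in all 3 siSCR arrays.

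Epithelial and pluripotency genes lay above D3 at the median, most of all in siSCR replicate 1. Of 21 epithelial genes 0 passed, and 10 had an unadjusted p under 0.05 (9.56% of all genes). In all siSCR arrays 10 lay above D3 and 0 below (10.7% and 9.56% of all genes). The median was 0.25, or 0.13 without siSCR replicate 1. Krt5, a keratin of basal epithelial cells, read 5.56, 5.80 and 5.58 in D3 against 7.95, 6.68 and 6.79 in siSCR, a difference of 1.49 (SE 0.295, adjusted p = 0.0991), or 1.09 without siSCR replicate 1 (adjusted p = 0.0772). It passed in 2 of the 17 alternative settings run for it. The general epithelial genes Krt8 (0.07, -0.07), Krt18 (-0.07, -0.20), Epcam (0.17, 0.09) and Cdh1 (0.23, 0.03) had smaller differences. The list medians relative to D3 were 0.54, 0.12 and 0.13 in siSCR replicates 1 to 3. Ceacam1, which is also an epithelial gene, likewise lay above D3 and was highest in siSCR replicate 1. Whether it moved with this list, and the part of epithelial cells in its rise, was not tested.

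By size, 31 genes differed at least 2-fold with groups that did not overlap (0.207% of genes), 22 higher (0.147%) and 9 lower (0.0602%), and 7 of the 31 passed. siSCR replicate 1 lay farthest from D3 in 20 of the 22 and in 8 of the 9. Those that did not pass include the airway and gut secretory genes Cyp2f2 (1.97, 1.62), Bpifb1 (1.37, 1.05), Agr2 (1.34, 1.04), Tff1 (1.28, 0.94) and Muc5ac (1.03, 0.76), named after their values were seen. Cyp2f2 read 6.20, 6.69 and 6.12 in D3 against 8.99, 7.99 and 7.94 in siSCR, with an adjusted p of 0.106, and of 0.211 without siSCR replicate 1. Among the lower genes were the synapse organiser gene Cbln1 (-1.003, -0.78), Nhlh1, Neurod4 and Npy.

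Of 25 pluripotency genes 0 passed in limma, and 7 had an unadjusted p under 0.05 (9.56% of all genes). In all siSCR arrays 14 lay above D3 and 1 below (10.7% and 9.56% of all genes). The median was 0.26, or 0.14 without siSCR replicate 1. The largest differences were those of the Nodal inhibitor gene Lefty1 (0.62, 0.49), Dppa2 (0.62, 0.48) and the stem cell factor gene Pou5f1 (0.52, 0.45), while that of Nanog (0.16, 0.14) was small. In siSCR replicates 1 to 3 the median relative to D3 was 0.46, 0.16 and 0.13.

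Genes of the interferon response and of RNA interference gave 0 calls in limma, with 3 and 1 at an unadjusted p under 0.05 (9.56% of all genes). Of 25 interferon response genes, which double-stranded RNA can induce, 9 lay above D3 in all siSCR arrays and 1 below (10.7% and 9.56% of all genes), with a median of 0.09, or 0.10 without siSCR replicate 1. The double-stranded RNA sensor gene Oas2 lay at 0.49 (adjusted p = 0.0958), or 0.44 without siSCR replicate 1. Also above D3 were Irf1 (0.45, 0.36), Ifitm1 (0.36, 0.40) and Ifit1 (0.35, 0.25), whereas Irf7 (-0.01, -0.05) and Usp18 (-0.16, -0.10) were not. Of 16 genes of the RNA interference machinery 0 lay above and 2 below D3 in all siSCR arrays, 12.5% of the list and less than the 20.3% of all genes. Their median was -0.01, or -0.04 without siSCR replicate 1, and the nuclease genes Dicer1 (0.02, -0.04) and Drosha (0.04, -0.03) and the slicer gene Ago2 (0.00, -0.03) had small differences.

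The genes targeted in the other lines were measured in these arrays too. Prmt1 read 8.69, 8.86 and 8.71 in D3 against 8.84, 8.74 and 8.86 in siSCR, and the groups overlapped (0.06, SE 0.0885, adjusted p = 0.877). Prmt8, a membrane-bound relative found mostly in neurons, read 7.37, 7.41 and 7.40 in D3 against 6.60, 7.18 and 7.10 in siSCR. All siSCR arrays lay below D3, with siSCR replicate 1 lowest, and the difference of -0.43 did not pass (SE 0.157, adjusted p = 0.388), nor did that of -0.25 without siSCR replicate 1. Neuronal genes were lowest in the same array, and their part in the Prmt8 values was not tested.

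For several of these genes the differences of the knockdown lines from D3 are given beside that of siSCR, and all of them share the D3 arrays. Direct differences from siSCR likewise reuse the siSCR arrays in which these genes passed. The p-values of both kinds of difference are therefore no independent support. Gfap, which rose by 1.21 in siSCR, fell in both knockdown lines, by 0.50 in siPRMT1 and 0.68 in siPRMT8 (adjusted p = 0.0214 and 0.00444). Gcg lay at -0.21 and 0.08 in the knockdown lines (adjusted p = 0.107 and 0.576). Directly against siSCR, Gfap differed by -1.71 and -1.88 and Gcg by -1.27 and -0.98 in siPRMT1 and siPRMT8 (largest adjusted p of the 4 values 0.000305). Without siSCR replicate 1 these differences were -1.80, -1.97, -1.25 and -0.96, and all passed.

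Tfap2a fell by 1.70 in siPRMT1 and by 1.11 in siPRMT8 against D3, beside 1.21 in siSCR. Calb1 fell by 2.09 and 1.62, beside 1.45. Rarg rose by 0.74 and 0.66, beside 0.58. Directly against siSCR, Tfap2a fell by 0.49 in siPRMT1 (adjusted p = 0.00614) and Calb1 by 0.64 (adjusted p = 0.048), while Rarg at 0.16 did not pass (adjusted p = 0.272). In siPRMT8 the differences from siSCR of 0.10 for Tfap2a, -0.17 for Calb1 and 0.08 for Rarg did not pass (adjusted p = 0.488, 0.597 and 0.571). Without siSCR replicate 1, Tfap2a (-0.59), Calb1 (-0.86) and Rarg (0.27, adjusted p = 0.0274) passed in siPRMT1 against siSCR, and none of the 3 genes passed in siPRMT8 against siSCR (smallest adjusted p = 0.0891). Moxd1, lower in siSCR, lay at 0.22 in siPRMT1 (adjusted p = 0.119) and rose by 0.34 in siPRMT8 (adjusted p = 0.0258). Hoxc8, higher in siSCR replicates 2 and 3, fell by 0.54 and 0.91 in the knockdown lines against D3.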

How the data were processed

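The authors deposited 1 log2 value per probe set and array for 35556 probe sets; a log2 scale was inferred from their range, 0.97 to 13.54. How the authors corrected background and normalised is not given in the sources used. The medians of the arrays lay within 0.023 of each other and were not normalised again. The number of arrays limits the precision, and depth does not apply.

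Probe sets with 1 gene symbol in the platform annotation (21789; 1621 had several and 12146 none) were used, 21698 of them updated by gene ID to RefSeq GRCm38.p6. The probe set with the highest mean over all 12 arrays stood for each of 19938 genes, and the lowest 25% by that mean were left out. limma 3.58.1 in R 4.3.3 was fitted to all 12 arrays with 4 group means (8 residual degrees of freedom), with Benjamini-Hochberg adjustment over 14953 genes and a threshold of 0.05. The main fit was tested on simulated data without an outlying array, and the alternative fits were not tested in this way.

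The comparison, the 38 gene lists and the naming rule were chosen with earlier results of these data known. The rule took Gfap, Calb1, Tfap2a, Prmt1 and Prmt8, up to 12 higher and 12 lower passing genes (8 and 8 without siSCR replicate 1), up to 2 per direction and list, and the 6 highest and 6 lowest in siSCR replicate 1 against its fellows. Predicted genes, small RNAs and multi-copy families were counted and not named. Genes named from lists outside the rule illustrate list counts.

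Replicate numbers were checked for pairing by correlating deviations from group means: same-numbered siSCR and D3 arrays gave 0.161, 0.194 and 0.107, all above 0.1, and siSCR replicate 3 with D3 replicate 2 also gave 0.107. Blocked values are printed where the block changed a call, singly for the fit with all arrays and as a range for the fit without siSCR replicate 1.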

Additional observations from a re-analysis of the deposited data

How the results depend on the processing

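All 23 genes kept their direction in every gene-level alternative in which they were tested. Of 405 values of these genes under the alternatives, 215 stayed on the same side of the threshold and 190 no longer passed. The counts of higher and lower genes were 5 and 4 in the 2-group fit, 5 and 10 with the replicate block, 0 and 0 with the block in the 2-group fit, 8 and 12 after quantile normalisation, 8 and 14 after median centring, 6 and 11 with no filter, 4 and 8 with the lowest 50% left out, 7 and 13 with probe sets averaged, 10 and 15 with a trended robust variance, and 140 and 139 with array weights, which gave siSCR replicate 1 a weight of 0.271. Leaving out 1 array gave 1 to 12 higher and 1 to 9 lower genes. The fit without siSCR replicate 1 gave 21 genes, the same in a 2-group fit gave 326 (203 higher, 123 lower), and with the replicate block, chosen after seeing the data, 13 (10 higher, 3 lower). All probe sets, also chosen after seeing the data, gave 2 and 1. The cause of these differences was not tested. Neto1 and Vsnl1 turned from -0.13 and -0.44 to 0.47 and 0.29 in the 2-group fit without siSCR replicate 1. Of the 45 named genes 5 changed sign without that array, these 2 and, without passing in either fit, Gabra3 (-0.39 to 0.26), Tac1 (-0.75 to 0.02) and Kcnk9 (-0.68 to 0.01). The median of all genes stayed within 0.014 of 0, and 10 of 38 lists had 0 genes called under every setting. No background signal was available to limit dim genes.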

Other observations

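When all 26667 probe sets above the filter were tested, whatever their annotation, 3 passed, those of Tfap2a (adjusted p = 0.00304), Gcg (adjusted p = 0.00322) and Gfap (adjusted p = 0.0415). Of the 7915 tested probe sets with no gene symbol and the 1121 with several, 0 passed in limma, and 1996 of all 26667 had an unadjusted p under 0.05.

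Genes between an adjusted p of 0.05 and 0.1 included the secreted Wnt modulator gene Sfrp2, which read 10.07, 10.54 and 10.02 in D3 against 9.54, 9.19 and 9.20 in siSCR (-0.90, adjusted p = 0.0958), the axon guidance receptor gene Robo3 (-0.72, adjusted p = 0.0991), the myelin protein gene Pmp22 (-0.54, adjusted p = 0.0991) and the homeobox gene Prox1 (-0.39, adjusted p = 0.0958). In all 4 genes every siSCR array lay below every D3 array, and the groups of the other genes in this range did not overlap either. Of the 4, Pmp22 passed in the 2-group fit (adjusted p = 0.0357). These genes were chosen after their values were seen.

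The arrays of the scrambled line spread more than those of the unmodified line, with a median gene SD of 0.0979 against 0.0614. The median absolute difference was 0.0834 between siSCR replicates 2 and 3, 0.131 and 0.132 between siSCR replicate 1 and each of them, and 0.0654 to 0.0734 between D3 arrays.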
